A study of Homo sapiens with 8 samples.

Results

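MEIOB, MEIOC, STAG3, SYCP1, SYCP2, SYCP3, DMC1, HORMAD1, SMC1B, and TEX14 are 10 genes of meiotic chromosome structure and recombination, out of 19483 named genes on the array. They were taken by symbol, through the RefSeq transcript that the array's annotation gives for each probe, and are represented by 13 of the 34127 non-control probes, with 2 probes each for MEIOC, STAG3, and HORMAD1. Expression was measured with 8 one-color Agilent arrays in HEK293T, a human embryonic kidney cell line, to ask which genes respond when TET1 oxidase activity is brought to methylated DNA. Every array holds RNA of 1 stable clone, picked as a colony after transfection and blasticidin selection, and each construct has 2 clones. Empty vector #1 and #2 carried the plasmid alone. TET1-CDwt #2 and #5 expressed the catalytic domain of TET1, the enzyme that oxidizes 5-methylcytosine. MBD-TET1-CDwt #3 and #10 expressed the same domain joined to the methyl-CpG-binding domain of MBD2, and MBD-TET1-CDmut #9 and #10 expressed that fusion with a catalytically inactive domain. The constructs stayed on permanently in these clones, so the arrays show a stable state and not a time course, and differences between clones of one construct are part of every comparison. MEIOC, under an older symbol, and HORMAD1 are on the study's own list of genes upregulated on these arrays, so their direction below is not independent of that choice.

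Meiosis pairs homologous chromosomes and exchanges DNA between them, and most of its machinery is normally made only in germ cells. Cohesin rings with the meiotic subunits STAG3 and SMC1B hold sister chromatids on a protein axis to which HORMAD1, SYCP2, and SYCP3 bind, and SYCP1 forms the transverse filaments that zip the axes of homologs into the synaptonemal complex. DMC1 is the meiotic strand exchange recombinase, MEIOB binds single-stranded DNA together with SPATA22 during recombination, MEIOC acts with the RNA helicase YTHDC2 to establish the meiotic program, and TEX14 keeps the bridges between germ cells open by binding CEP55. Several of these genes, among them HORMAD1 and SYCP1, are known as cancer/testis genes, which are silent in most somatic tissues and can be derepressed when promoter methylation is lost.

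Because the MBD recognizes methylated CpG, the CpG sites of the promoters are shown for 4 members with different array readouts. MEIOC was the member called by the test, STAG3 gave signal on every array with one of its probes, DMC1 was well above background on all arrays, and SYCP3 on none. Each run is the 250 bases before the start of transcription from RefSeq (assembly GRCh38.p14), written 5′ to 3′ on the strand of the gene, with every CpG in capitals. The windows are chr17:44656218-44656467, plus strand, for MEIOC, chr7:100177474-100177723, plus strand, for STAG3, chr22:38570184-38570433, minus strand, for DMC1, and chr12:101739463-101739712, minus strand, for SYCP3.
MEIOC: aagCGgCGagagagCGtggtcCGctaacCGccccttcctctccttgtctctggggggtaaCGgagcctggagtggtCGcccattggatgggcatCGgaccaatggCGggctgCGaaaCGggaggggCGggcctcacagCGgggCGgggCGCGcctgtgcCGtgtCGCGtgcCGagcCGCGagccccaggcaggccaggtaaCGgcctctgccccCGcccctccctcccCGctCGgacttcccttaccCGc
STAG3: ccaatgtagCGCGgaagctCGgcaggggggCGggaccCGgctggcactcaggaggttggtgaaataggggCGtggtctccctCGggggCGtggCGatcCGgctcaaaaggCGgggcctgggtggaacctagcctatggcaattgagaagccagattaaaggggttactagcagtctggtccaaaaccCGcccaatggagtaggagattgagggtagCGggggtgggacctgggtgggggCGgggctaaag
DMC1: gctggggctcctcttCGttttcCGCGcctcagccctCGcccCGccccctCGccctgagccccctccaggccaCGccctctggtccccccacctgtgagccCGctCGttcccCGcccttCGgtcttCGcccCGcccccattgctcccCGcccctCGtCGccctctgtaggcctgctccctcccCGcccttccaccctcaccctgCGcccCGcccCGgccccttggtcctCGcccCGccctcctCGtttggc
SYCP3: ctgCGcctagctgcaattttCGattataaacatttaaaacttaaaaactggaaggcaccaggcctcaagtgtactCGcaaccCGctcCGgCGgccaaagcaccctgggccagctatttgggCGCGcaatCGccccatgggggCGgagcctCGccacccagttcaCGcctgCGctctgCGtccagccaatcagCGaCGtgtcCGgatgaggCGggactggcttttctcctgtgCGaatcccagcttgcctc
The table of promoters held 8 windows for 7 of the 10 members, with a second start for STAG3, and none for MEIOB, HORMAD1, and TEX14. The MEIOC window has 27 CpG sites, more than 82.3% of the 35116 windows of that length, whose median is 11. There are 23 CpG sites upstream of DMC1, 19 upstream of SYCP3, 33 upstream of SYCP2, and 29 upstream of SMC1B. The windows of STAG3 have 14 and 24, and that of SYCP1 has 8. CpG-rich windows thus belonged to members with very different readouts. Methylation of these sites in the clones was not analysed here. The letters TCCCGC, an element bound by E2F6 that is known from germ cell genes repressed in somatic cells, were searched on both strands and occurred in 23.5% of all windows. They were found in both STAG3 windows, in SYCP3, and in SYCP2 and SMC1B with 2 matches each, and not in those of MEIOC, DMC1, and SYCP1. CACGTG, the palindromic E-box, occurred in 6.34% of all windows and among the members only in the second STAG3 window. A match describes letters and is not a bound site.

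Intensities below are the log2 of the processed signal of a spot minus the log2 of the array's 75th percentile, so a value of 0 is the 75th percentile of that array and each step of 1 is a doubling. The 75th percentile lay between 328 and 527 intensity units, and 63.2 to 68.2% of the probes were well above background by the scanner software. The dimmest signal so classed lay between -6.01 and -5.51, and no spot was saturated. One slide carried the clones without an MBD, empty vector and TET1-CDwt, and the other slide those with it. Construct and slide therefore cannot be told apart between a fusion and empty vector, and MBD-TET1-CDmut serves as the control of the active fusion within a slide. The 9137 probes that stayed dim on all arrays were shifted against empty vector, with a median log2 change of 0.37 for the active fusion and 0.35 for the inactive one, but of 0.03 between the fusions. All 7 HEK293T markers examined, such as the intermediate filament genes VIM and KRT18, had a probe well above background on all 8 arrays. One of them, the neurofilament gene NEFM, was lower by size in MBD-TET1-CDwt, at 0.469-fold of empty vector and 0.446-fold of MBD-TET1-CDmut, with 0.32 in clone #3 and 2.29 or more on the other 7 arrays, and did not pass limma's test (adjusted p = 0.850 and 0.781). Of 10 germ cell markers, DDX4, DAZL, DPPA3, SYCP3, and TNP1 were not well above background on any array, whereas ACR, NANOS3, and PRM2 were on all 8, PRM1 on 6, and ZP3 on 1. The probes for TET1 and MBD2 were not placed against the expressed constructs and check no transgene. One of the 2 MBD2 probes was 2.04-fold higher by size in TET1-CDwt, where #5 gave -2.57 while none of the remaining 7 arrays exceeded -3.94. Of 6 markers of other cell types, 4 were also not well above background on any array.

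MEIOB and MEIOC, with TEX14, gave the clearest signals in the active fusion. On both MBD-TET1-CDwt arrays MEIOB, MEIOC (one of its probes), and TEX14 were well above background, with means at least 2-fold those of empty vector and of MBD-TET1-CDmut. By limma, 1 of the 8 tested member probes, that of MEIOC, exceeded empty vector at an adjusted p under 0.05, against 0.102% of the 22530 probes tested. The same probe was the only member called higher against MBD-TET1-CDmut, where 0.0888% of the tested probes were. In both comparisons 0 member probes were called lower by limma, with 0.0133% of all tested probes called lower in each. At an unadjusted p under 0.05, 5 member probes were higher than in the vector control, against 2.84% of all, and 0 lower, against 3.76%. Against MBD-TET1-CDmut these counts were 4, against 3.28%, and 0, against 3.56%. The probes of MEIOC and TEX14 in these counts entered the test only through MBD-TET1-CDwt, where they were high. By size, counted with no test, 3 of the 10 genes exceeded empty vector at least 2-fold, against 0.952% of 27739 genes and transcripts on the array, and the same 3 genes exceeded MBD-TET1-CDmut at least 2-fold, against 1.01%. These comparisons share the MBD-TET1-CDwt arrays, so the second is not independent of the first. At 5-fold, MEIOB alone passed in each, against 0.234% and 0.177%. More cells expressing a gene and more RNA per cell cannot be told apart in these bulk samples.

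MEIOB was measured by probe A_32_P75902 (NM_152764). Its log2 intensity was -4.70 and -5.81 in empty vector #1 and #2, -6.32 and -5.61 in TET1-CDwt #2 and #5, -5.86 and -5.93 in MBD-TET1-CDmut #9 and #10, and -3.71 and -0.42 in MBD-TET1-CDwt #3 and #10. Both MBD-TET1-CDwt clones lay above the other 6, whose highest value was that of empty vector #1, and #10 lay 9.79-fold above #3. The signal was well above background on both empty vector arrays, on TET1-CDwt #5, and on both MBD-TET1-CDwt arrays, but on neither MBD-TET1-CDmut array. The mean in MBD-TET1-CDwt was 9.13-fold that in empty vector, a log2 difference of 3.19 (standard error 0.97, 95% interval 0.90 to 5.48), which did not pass limma's test (adjusted p = 0.638). Within the slide of the fusions it exceeded MBD-TET1-CDmut at least 11.1-fold, with a log2 difference of 3.83 (standard error 0.97, limma adjusted p = 0.508). Without MBD-TET1-CDwt #3 the log2 differences were 4.84 and 5.47 (limma adjusted p = 0.0294 and 0.0214), and without #10 they were 1.54 and 2.18 (limma adjusted p = 0.223 and 0.140). In these fits the remaining clone is assumed to vary like the clones of the other constructs.

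MEIOC, whose protein controls the entry of germ cells into meiotic prophase, was near the bottom of the scale in every control. Probe A_24_P940365 (NM_001145080) gave -8.00 and -8.20 in empty vector #1 and #2, -8.16 and -8.10 in TET1-CDwt #2 and #5, and -7.74 and -7.71 in MBD-TET1-CDmut #9 and #10, none of them well above background. In MBD-TET1-CDwt it was -4.47 in #3 and -2.98 in #10, both well above background and both above all other arrays. The log2 difference from empty vector was 4.37 (standard error 0.43, limma adjusted p = 0.0243) and that from MBD-TET1-CDmut 4.00 (standard error 0.43, limma adjusted p = 0.0399). Because the other groups have only a bound, the folds are given as at least 4.55-fold and at least 3.49-fold. This probe entered the test only through the MBD-TET1-CDwt arrays, and without a filter on dim probes the adjusted p of limma was 0.0903 and 0.150. The call was also lost without any 1 of the 6 other clones, but not without either MBD-TET1-CDwt clone. The standard deviation of this probe was 1.05 in MBD-TET1-CDwt. It was 0.15, 0.04, and 0.02 in empty vector, TET1-CDwt, and MBD-TET1-CDmut, whose signals were all dim. The fit shares 1 spread over the groups, and a lone MBD-TET1-CDwt clone is assumed to vary like these dim signals. That the call stayed without either MBD-TET1-CDwt clone is therefore no check of it.

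The second MEIOC probe, A_24_P238257, for the same transcript, cleared the background on a single array, that of MBD-TET1-CDwt #10, with -4.96. In MBD-TET1-CDwt #3 it gave -7.63, inside the range of -8.15 to -7.34 of the other 6 arrays. The probes for MEIOC thus disagreed in clone #3 and pointed the same way in #10. The second probe was too dim to enter the test, and no excess of the active fusion over either control could be bounded with it.

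TEX14, a component of intercellular bridges, was measured by probe A_23_P54996 (NM_198393). It gave -4.38 and -3.48 in MBD-TET1-CDwt #3 and #10, both well above background. In empty vector it was -6.14 and -6.65, and in MBD-TET1-CDmut -5.89 and -5.84, none well above background. In TET1-CDwt, however, it was -5.60 in #2, not well above background, and -3.21 in #5, the highest value of all 8 arrays. The active fusion was at least 3.97-fold above empty vector (log2 difference 2.47, standard error 0.72, limma adjusted p = 0.601) and at least 3.04-fold above MBD-TET1-CDmut (log2 difference 1.94, standard error 0.72, limma adjusted p = 0.695), and neither difference passed the test. Unlike MEIOB and MEIOC, TEX14 was therefore not separated by construct, since 1 of the 2 clones with the catalytic domain alone exceeded both clones of the fusion.

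**Figure D1:**
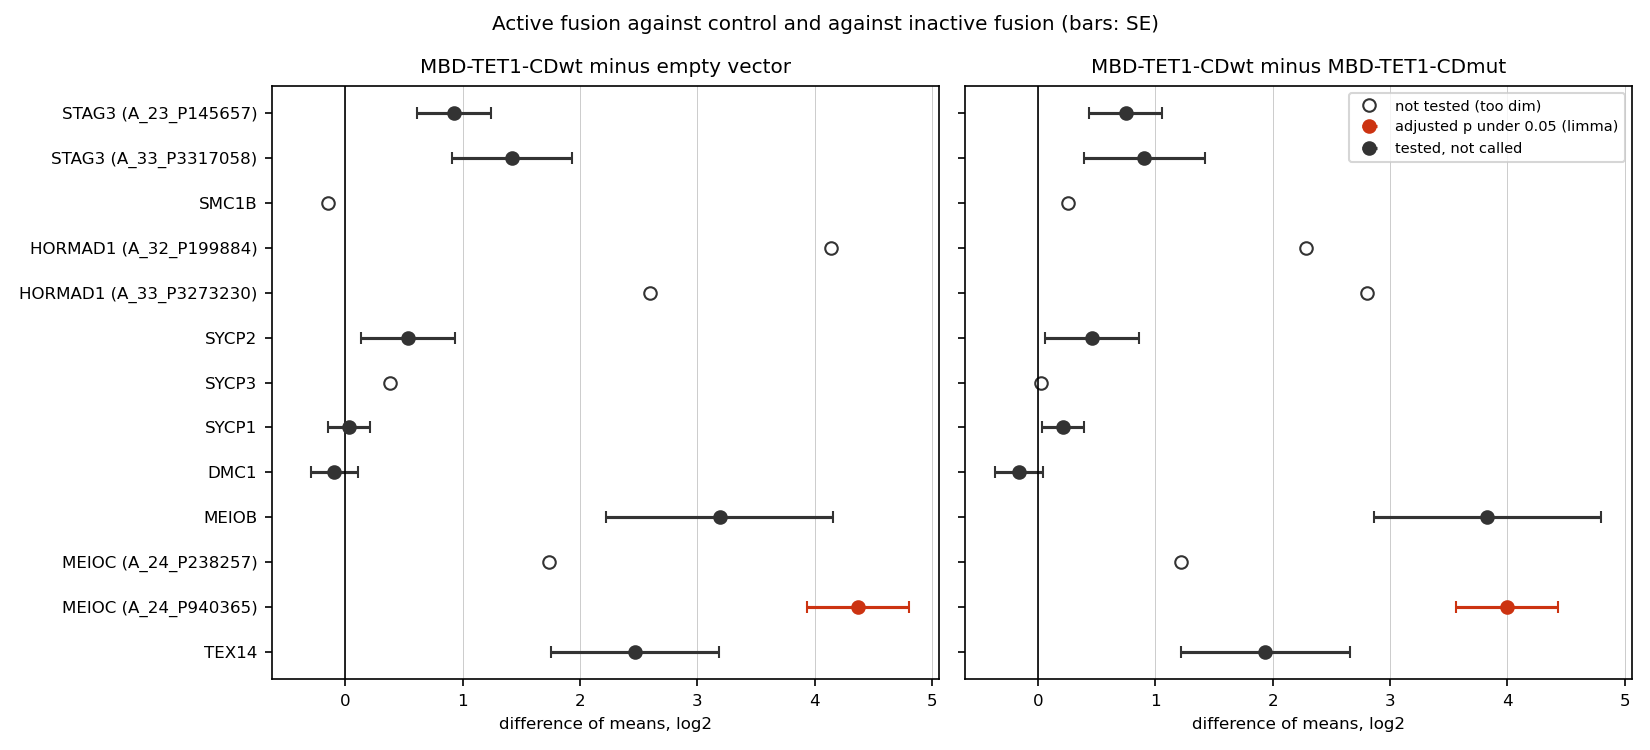
Difference of group means on the log2 scale (horizontal axis) for the 13 probes (vertical axis), MBD-TET1-CDwt minus empty vector on the left and minus MBD-TET1-CDmut on the right, with bars for the standard error of limma over 8 arrays. Only the MEIOC probe at 4.37 and 4.00 passed (red), and open points are probes too dim to be tested, whose distances are not folds.

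HORMAD1, an axis protein that monitors the pairing of homologs, was detected in MBD-TET1-CDwt #10 by both of its probes (NM_032132). Probe A_32_P199884 gave -2.49 in #10 and -5.35 in #3, the latter not well above background. It was also well above background in MBD-TET1-CDmut #9, at -4.71, while MBD-TET1-CDmut #10 gave -7.70 and the empty vector and TET1-CDwt clones lay between -8.16 and -7.96. For this probe MBD-TET1-CDmut #9, a clone with the inactive domain, thus lay above MBD-TET1-CDwt #3. Probe A_33_P3273230 gave -2.57 in MBD-TET1-CDwt #10 and -5.80 in #3, and between -8.06 and -6.50 on the other 6 arrays, with MBD-TET1-CDwt #10 alone well above background. With it MBD-TET1-CDmut #9 was at -6.63, so the signal of that clone rested on 1 probe. As no construct had either probe well above background on both of its arrays, HORMAD1 was not tested by limma. With 1 of 2 MBD-TET1-CDwt arrays measured, its mean was 3.99-fold and 3.31-fold that of empty vector by the respective probes, and 2.30-fold and 2.54-fold that of MBD-TET1-CDmut. Only dim signals of the lower group were raised for these folds. They are not bounds, since #3 entered as measured though not well above background.

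STAG3 and SMC1B, the meiotic subunits of cohesin, differed from each other in detection. STAG3 probe A_23_P145657 (NM_012447) was well above background on all arrays. Its log2 intensity was -2.55 and -2.19 in empty vector #1 and #2, -1.84 and -2.07 in TET1-CDwt #2 and #5, -1.90 and -0.99 in MBD-TET1-CDwt #3 and #10, and -2.25 and -2.13 in MBD-TET1-CDmut #9 and #10. The highest value was that of MBD-TET1-CDwt #10, whereas #3 lay below TET1-CDwt #2. The mean in MBD-TET1-CDwt was 1.90-fold that in empty vector (log2 difference 0.93, 95% interval 0.19 to 1.67, limma adjusted p = 0.690) and 1.68-fold that in MBD-TET1-CDmut (log2 difference 0.75, limma adjusted p = 0.728), and neither passed the test. The other STAG3 probe, A_33_P3317058, cleared the background on both arrays of TET1-CDwt, at -5.51 and -5.89, and on MBD-TET1-CDwt #10, at -4.09. Its log2 difference from empty vector, where it was not well above background on either array, was 1.42 (limma adjusted p = 0.721). With #10 as the lone clone of the active fusion this was 2.28, and with #3 as the lone clone 0.56. SMC1B (A_23_P29330, NM_148674) was not well above background on any array, with values between -7.60 and -5.64, and its highest value was in empty vector #1.

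Of the synaptonemal complex genes among the members, SYCP1 and SYCP2 were not called in the active fusion, and SYCP3 was too dim to be tested. SYCP1 (A_23_P722, NM_003176) was well above background on all 8 arrays within a range of 0.41 on the log2 scale, from -5.40 in MBD-TET1-CDmut #9 to -4.99 in MBD-TET1-CDwt #3. Its log2 difference between MBD-TET1-CDwt and empty vector was 0.03 (95% interval -0.39 to 0.46, limma adjusted p = 0.984). SYCP2 (A_23_P210675, NM_014258) was well above background on 7 arrays, the exception being empty vector #1 at -5.46. Its values were -4.76 and -4.11 in MBD-TET1-CDwt #3 and #10, and the second empty vector clone, at -4.47, lay between them. The log2 difference for SYCP2 was 0.53 (95% interval -0.41 to 1.48, limma adjusted p = 0.888), so that a 2-fold difference could not be set apart from none with 2 clones per construct. SYCP3 (A_23_P76374, NM_153694) was not well above background on any array. Its values were -8.14 to -7.91 on the slide of empty vector and TET1-CDwt and -7.68 to -7.63 on the slide of both fusions. The log2 differences from empty vector were 0.38 for the active fusion and 0.36 for the inactive one. The probes dim on all arrays had median shifts of 0.37 and 0.35, so the shift was not particular to SYCP3.

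DMC1 (A_23_P361381, NM_007068) was well above background on all arrays and varied less over the arrays than MEIOB, the other recombination gene of the 10. It gave -1.29 and -1.10 in empty vector #1 and #2, -1.24 and -1.19 in TET1-CDwt #2 and #5, -1.51 and -1.07 in MBD-TET1-CDwt #3 and #10, and -1.09 and -1.16 in MBD-TET1-CDmut #9 and #10. Both the lowest and the highest of the 8 values were those of MBD-TET1-CDwt clones. The log2 difference from empty vector was -0.09 (95% interval -0.58 to 0.39, limma adjusted p = 0.961), an interval that does not reach 2-fold in either direction. Of the 10 genes, DMC1, SYCP1, and STAG3 had a probe well above background on all 8 arrays, empty vector included.

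No member was called by limma for the catalytic domain without the MBD or for the inactive fusion. For TET1-CDwt against empty vector 0 member probes were called by limma, as were 0% of all tested probes, with 1 member, TEX14, higher at an unadjusted p under 0.05 (log2 difference 1.99, standard error 0.72), against 0.652% of all, and 0 lower, against 1.85%. That difference came from TET1-CDwt #5, and TEX14 did not count as 2-fold higher because #2 was not well above background. By size 0 of the 10 genes were at least 2-fold higher in TET1-CDwt, against 0.278% of all genes, and 0 in MBD-TET1-CDmut, against 0.281%. For MBD-TET1-CDmut against empty vector 0 member probes were called by limma, again as 0% of all, and 0 had an unadjusted p under 0.05 in either direction, against 0.861% of all probes higher and 1.82% lower. The mean of MEIOB was lower than in empty vector in both constructs, by log2 differences of -0.71 for the domain alone and -0.64 for the inactive fusion (standard error 0.97 for each, not passing limma's test). Over the 13 probes, the log2 difference against the vector control had a median of -0.05 for the catalytic domain alone and 0.18 for the inactive fusion, beside -0.06 and 0.03 over all 34071 probes with complete values. In MBD-TET1-CDwt the same median was 1.42, beside 0.05 over all probes, and against MBD-TET1-CDmut it was 0.91, beside 0.02. These medians include signals not well above background as measured. With such signals raised to the dimmest signal classed as well above background on each array, the medians were 0.93, beside 0.14 over all probes, and 0.70, beside -0.01. Over the 8 tested probes alone they were 1.17, with 7 of 8 higher, beside -0.02 and 46.9% of tested probes, and 0.83, with 7 of 8 higher, beside 0.01 and 51.0%. The MEIOC probe and the TEX14 probe among these 8 entered only through MBD-TET1-CDwt, where they were high. The members were also chosen with earlier results of these data known, so these medians are no test of the set.

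Most member probes gave a higher signal in clone #10 of the active fusion than in #3. Of the 11 member probes well above background on at least 1 of the 2 MBD-TET1-CDwt arrays, 10 were higher in #10, with a median log2 difference of 0.91 beside -0.03 over all such probes on the array, with dim signals raised in the same way. At least 2-fold higher in #10 were 5 probes of MEIOB, MEIOC, HORMAD1, and STAG3, against 7.19% of all such probes, and 0 were at least 2-fold higher in #3, against 4.21%. At least 5-fold higher in #10 were 3 probes, of MEIOB and HORMAD1, against 0.866%. Both HORMAD1 probes, the second STAG3 probe, and the second MEIOC probe entered these counts only through #10, where they were high. Their direction was therefore largely fixed by that selection, and probes of the same gene are not independent. MEIOB was 9.79-fold and MEIOC, by the probe measured in both clones, 2.80-fold higher in #10 than in #3. HORMAD1 was at least 7.98-fold and at least 7.26-fold higher by its probes, the second STAG3 probe at least 2.77-fold, and the second MEIOC probe at least 1.52-fold, since none of these was well above background in #3. TEX14, at 1.87-fold, and DMC1, at 1.36-fold, stayed under 2-fold, and SYCP1 was the exception with a slightly lower value in #10, at 0.88-fold. Both MBD-TET1-CDwt clones lay above the other 6 arrays with 3 of the 13 probes, of MEIOB, MEIOC, and HORMAD1, against 6.10% of all probes, although HORMAD1 was not well above background in #3. With 1 array per clone this difference has no replicate and was not tested. Over all tested probes, the standard deviation of a clone about its group was 0.50 on the log2 scale in MBD-TET1-CDwt, against 0.25 to 0.38 in the other constructs.

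**Figure D2:**
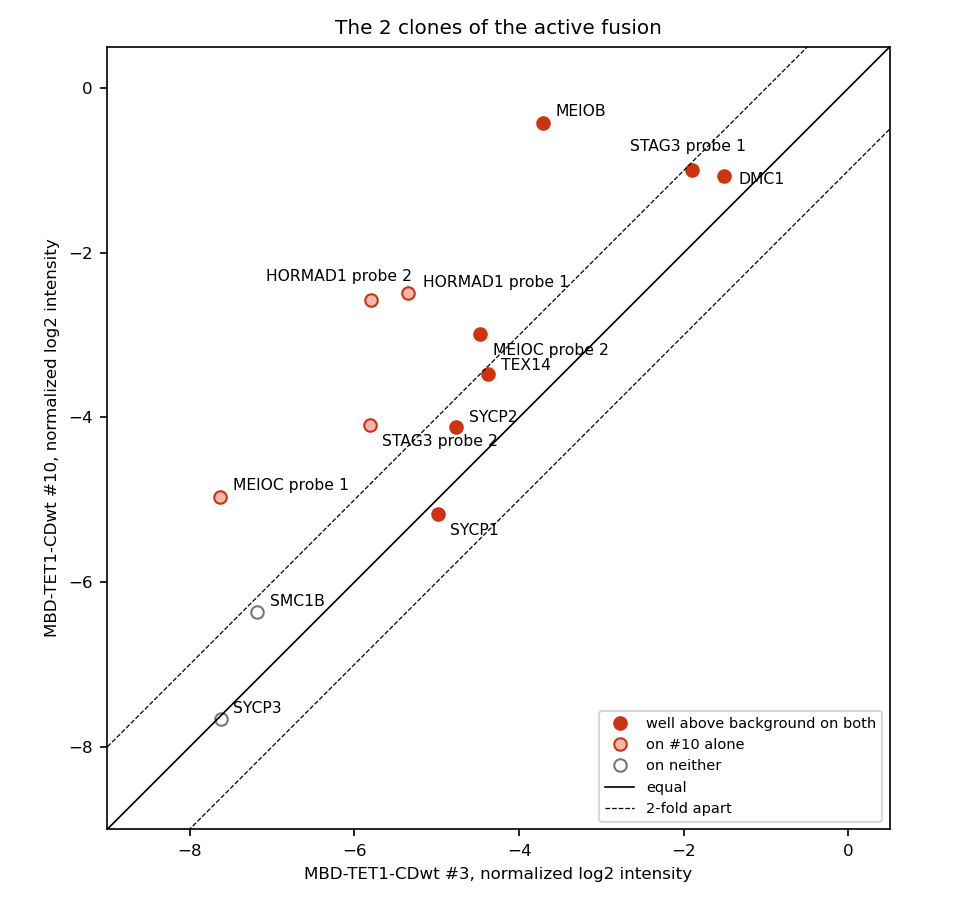
Normalized log2 intensity of the 13 probes in MBD-TET1-CDwt #3 (horizontal axis) and #10 (vertical axis), 1 point per probe, with a solid line of equality and dashed lines 2-fold apart. Filled points were well above background on both arrays, pale points on #10 alone. MEIOB, HORMAD1, MEIOC, and the second STAG3 probe lie above the upper dashed line, as measured, and no point lies below the lower one. Probes are numbered as 1 and 2 in the order of the plot by array. MEIOC probe 1 is A_24_P238257, called the second MEIOC probe in the text, and MEIOC probe 2 is A_24_P940365, the one called by limma.

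Somatic relatives and partners of these genes were set beside them. The mitotic cohesin subunits STAG1, STAG2, SMC1A, and SMC3 and the single-stranded DNA-binding protein RPA1 belong to a list of 12 mitotic counterparts with 20 probes, all well above background on all 8 arrays. By limma 0 of the 12 were called in any of the comparisons, and 0 were at least 2-fold higher or lower. The median log2 difference of their probes between MBD-TET1-CDwt and empty vector was 0.06. YTHDC2, the partner of MEIOC, ranged from 0.43 to 0.95, with a log2 difference of -0.09 between the active fusion and the control (standard error 0.22, limma adjusted p = 0.966). CEP55, the target of TEX14, had differences of 0.11 and 0.04 by its probes. SPATA22, the partner of MEIOB, cleared the background on the array of MBD-TET1-CDwt #10 and on no other, with -5.03. Its next highest value was -6.07 in MBD-TET1-CDwt #3, and the other 6 arrays lay between -8.03 and -7.52. SPATA22 was too dim to be tested. With 1 of 2 arrays measured its mean in the active fusion was 1.29-fold that of the vector control, with dim control signals raised. This fold is not a bound, since MBD-TET1-CDwt #3 entered as measured though dim, and no excess over MBD-TET1-CDmut could be bounded. HORMAD2, the paralog of HORMAD1, was not well above background on any array.

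Other meiotic genes were described from 4 lists, covering break formation, axis and synaptonemal complex, strand exchange and crossover, and telomere attachment and entry into meiosis. Of their 44 genes 39 have a probe, and 22 of these could be tested. By limma 0 of the 22 were called in any of the 4 comparisons, and 0 of the 39 passed the size rule in either direction. At an unadjusted p under 0.05, different genes of the axis list passed in opposite directions. SYCP2L was lower in MBD-TET1-CDwt than in the vector control (log2 difference -0.58, standard error 0.22), and one RAD21L1 probe was higher than in MBD-TET1-CDmut (log2 difference 0.56, standard error 0.20), where it was not well above background. That RAD21L1 probe differed from the vector control by only 0.02 on the log2 scale in MBD-TET1-CDwt. In MBD-TET1-CDmut it was lower than in the vector control (log2 difference -0.54, standard error 0.20). RAD21L1 was the 1 gene of that list to pass there at the same level, so both results rest on its low signal in MBD-TET1-CDmut. SPO11, which makes the DNA breaks that start recombination, was among 13 genes not well above background on any array, and 18 were on all arrays. The meiotic cohesin subunit REC8 belonged to the latter, between -2.56 and -1.73 on the 8 arrays. The median log2 differences between MBD-TET1-CDwt and empty vector were -0.62 for break formation and 0.08 for the axis, over 5 and 6 tested probes. They were -0.23 for strand exchange and -0.06 for telomere attachment and entry, over 11 and 5. For break formation the clones disagreed. Both ZCWPW1 probes were lowest in MBD-TET1-CDwt #3, at -0.99 and -3.99, and highest in #10, at 0.76 and -2.06. The other tested probes, of ANKRD31, TOP6BL, and MEI1, differed from empty vector by -0.62, -0.37, and 0.05.

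The pattern of MEIOB across the 8 arrays was compared with that of all other tested probes by Pearson's correlation. The highest values were 0.990 for an unnamed transcript (ENST00000511256), 0.989 for PPP1R3D, 0.980 for LINC02610, 0.975 for ANKHD1-EIF4EBP3, and 0.970 for ESRP2. Across the array 21 of 22529 probes exceeded 0.95. The 8 arrays are shared by all of these genes, and a high correlation here rests on MBD-TET1-CDwt #10. PPP1R3D reached 0.23 in that clone against -0.36 to -0.10 elsewhere, and ESRP2, a regulator of epithelial splicing, reached -0.55 against -2.74 in MBD-TET1-CDwt #3 and at most -3.62 on the other 6 arrays.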

How the data were processed

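RNA of 8 stable HEK293T clones was labeled with Cy3 and hybridized by the authors to Agilent 4x44K v2 arrays. The intensity values, as deposited by the authors, come from Agilent Feature Extraction as its processed signal (version 9.5.1 per the submitters' processing notes, 10.7.3.1 per the file headers), a linear intensity after background subtraction, without scaling across arrays. The series-wide table repeats them in all 44495 rows. The array design was annotated on hg19, and probes were named through RefSeq transcripts.

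Control spots were dropped, as were flagged spots, of which each array had 213 to 269. Values are the log2 intensity minus the array's 75th percentile, as means over the spots of each probe. limma 3.58.1 (R 4.3.3) was fitted with a mean for each of 4 groups (4 residual degrees of freedom) to the 22530 probes that cleared the background on both arrays of 1 or more constructs, with Benjamini-Hochberg adjustment. The 95% intervals come from the same fit. Probes with a flagged value on any array (56) were not analysed. The size rule counted a gene if both arrays of the higher group had a probe well above background whose mean was at least 2-fold that of the lower group, with dim signals of the lower group raised to the lowest signal well above background on their array. Where the lower group was dim on both arrays, the fold is a bound, written as at least. All 10 members are named. Of the other lists, named genes are those called or at least 2-fold higher or lower (NEFM and MBD2) and fixed relatives or partners of members, with the 5 genes most like a member that passed 5-fold. HEK293T, germ cell, and other cell type markers, SPO11, SYCP2L, the tested break formation genes, and genes given as single-clone signals were named beside these. The members and lists were chosen with earlier results of these data known. The p-values and intervals use a spread between clones that is shared by all 4 constructs, and not that of the MBD-TET1-CDwt clones alone. For MEIOB the standard deviation was 2.33 in MBD-TET1-CDwt and 0.05 to 0.79 in the other constructs. The number of transfections behind the clones was not stated.

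The fit was tested on simulated data (22530 probes, active fusion against vector), where limma recovered 118 of 200 changed probes and 79 of 93 changed 8-fold or more, with 8 false calls, and made 1 call with nothing changed. Each simulated probe had the same spread in all groups, whereas the real MBD-TET1-CDwt clones varied more than those of the other constructs. The counts hold for that setting only. The alternatives were normexp background correction (on median spot and background signals, with an offset of 50, and the array's median background where a spot's background was an outlier), median and quantile scaling, other filters, fits, and priors, other size rules, and leaving out each clone. Tables and figures were made in Python 3.11.15 with pandas 2.3.3, scipy 1.17.1, numpy 2.4.6, and matplotlib 3.10.9. RT-PCR, bisulfite, and LNCaP data were not analysed here, and the values of a gene among the mitotic counterparts are not reported here.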

Additional observations from a re-analysis of the deposited data

How the results depend on the processing

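For MBD-TET1-CDwt against empty vector, limma called 1 member gene (MEIOC), and the same gene under median and quantile scaling. It called 0 under normexp background correction, without a filter on dim probes, with probes well above background on at least 1 array, with only the groups compared in the fit, and with a trended robust prior, where the adjusted p of MEIOC lay between 0.0555 and 0.703. Against MBD-TET1-CDmut the count was likewise 1, and 0 under the same 5 settings, with adjusted p between 0.0903 and 0.828. Leaving out each clone gave 0 to 3 genes against empty vector and 0 to 2 against MBD-TET1-CDmut, the highest counts without MBD-TET1-CDwt #3 (MEIOB, MEIOC, and STAG3, and MEIOB and MEIOC), where the lone clone is assumed to vary like those of other groups. The size rule counted 3 genes in each comparison, against 1 (MEIOB) under normexp background correction and 1 with 5-fold in place of 2-fold. With every clone past the fold it counted 2 against empty vector (MEIOC and TEX14, not MEIOB) and 3 against MBD-TET1-CDmut, and with 1 array well above background sufficing 4 in each (HORMAD1 added). Leaving out each clone gave 3 to 5 genes against empty vector, with HORMAD1 and STAG3 added without MBD-TET1-CDwt #3 and STAG3 and SYCP2 without empty vector #2, and 3 to 5 against MBD-TET1-CDmut. In TET1-CDwt the size count of 0 became 1 (TEX14) with 1 array well above background sufficing, and 0 to 1 on leaving out a clone (TEX14 without #2). In MBD-TET1-CDmut it was 0 to 1 (HORMAD1 without #10). Normexp lowered the log2 difference of MEIOC to 0.83 and of MEIOB to 1.47, with its offset of 50 added to every intensity.

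Of 732 values of single probes under the alternatives, 686 kept their side of the threshold or stayed within the spread between clones. Another 22 no longer passed, 3 newly passed, and 21 moved by more than that spread. The sign of the difference changed in 43. A change of filter or prior, or leaving out a clone of a group not compared, cannot change a log2 difference. Untested probes have no adjusted p. The 686 are therefore no measure of stability. No paired analysis was possible because the clone numbers name independently isolated clones and no groups compared share 2 of them. A slide effect was not modeled, as every group lies on 1 slide. Brightness limited the comparison: SYCP3 and SMC1B were not well above background anywhere, and HORMAD1 and 1 MEIOC probe were too dim for the test.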

Other observations

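Some further germline transcripts gave a signal on 1 array of the active fusion alone, and they were picked after their values were seen. RAD21L1, a meiotic cohesin subunit, was at -2.99 in MBD-TET1-CDwt #3 by 1 of its probes, and between -7.92 and -6.80 in the other 7 clones, where it was not well above background. Another RAD21L1 probe was well above background on 6 arrays, within -5.60 to -5.14 on those arrays, and did not show this difference, and a further one was not well above background on any array. In MBD-TET1-CDwt #10, SYCE1, a central element protein of the synaptonemal complex, was at -5.08, and ZP3, an egg coat glycoprotein, at -4.51, with neither well above background on any other array. Such signals were not limited to the active fusion. TEX11, of the axis list, was well above background only in empty vector #1, at -4.34. MSH4, of the crossover list, was so only in empty vector #2, at -5.56. These probes were too dim to be tested, and each signal rests on 1 clone.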
